A study of Drosophila melanogaster with 6 samples.

Results

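The comparison described here sets the RNA that was still tagged after a 1-hour chase with uridine and actinomycin D (U+actD) against the RNA still tagged after a 1-hour chase with uridine only (UO), gene by gene. A gene belongs to the comparison when the authors' normalized table gives it a value on both arrays, which holds for 7901 of the 13170 genes that could be named on the array. The scanner files are a second source, in which 9204 genes stood above background on both arrays.

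The series follows newly made RNA in whole Drosophila embryos with 6 arrays, namely 1 after the pulse, 1 after 1 hour of chase and 1 after 3 hours in each of the series U+actD and UO. All 6 groups came from wildtype embryos of stages 12 to 15 that had been reared at 18 or 25 degrees C. They carried UAS-T.g.UPRT, the gene for a uracil phosphoribosyltransferase of Toxoplasma gondii, and no GAL4 to switch it on, so that the tag did not depend on the enzyme or on a cell type. Permeabilized embryos took up 1 mM 4-thiouridine for 1 hour at 30 degrees C and were then moved to medium with 10 mM uridine, which in the U+actD series also held actinomycin D. The age in hours and the concentration of the drug are not given in the sources used here. Several collections of embryos were pooled for each time point, and each group is 1 array, so that no p-value can be given for any difference and every difference below is a description of those 2 arrays.

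In this kind of pulse-chase experiment, cells build the thiolated nucleoside into RNA as it is transcribed, the tagged RNA is purified through its sulphur, and an excess of uridine during the chase dilutes the label. Actinomycin D intercalates into DNA and blocks RNA polymerases, so that little or no RNA should be made while it acts. The tagged RNA left after a chase with the drug should therefore come from the pulse. Without the drug it can also hold RNA that was made early in the chase with label not yet diluted. Some recorded U+actD signals nonetheless rose from the pulse to 1 hour in the table. GstD2 went from 3482 to 15379, while the median gene fell from 10492 to 6453. The reason for such rises was not tested.

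Signals of the 2 arrays are on different scales. At the 1-hour chase the median gene had a normalized intensity of 6453 on the U+actD array and of 2733 on the UO array in the table, and of 2437 and 596 in the scanner files. Each array was therefore centred on its median gene, and a difference is the log2 signal of a gene relative to the median gene in U+actD less the same quantity in UO. A difference of 1 is a relative level 2 times as high in U+actD, and "past 2-fold" means beyond 1 or -1. The table and the scanner files hold the same U+actD array, with the table's value being 1.92 times the scanner's. Their UO values are not multiples of each other, and 18.3% of 7901 genes differed by more than 2-fold between the UO column of the table and the UO scanner array. Where a pair of differences follows a gene or list, the table's comes first and the scanner files' second. Values at the pulse are given in the same order, and the sources can oppose each other there.

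The ranking of genes was similar after both chases, with a Spearman's rho across genes of 0.87 between the arrays in the table and 0.90 in the scanner files. In the table, 1200 of 7901 genes (15.2%) were past 2-fold higher in U+actD and 1230 (15.6%) past 2-fold lower, or 30.8% together. With centring on the 75th percentile in place of the median, 1655 genes were past 2-fold higher and 715 past 2-fold lower, so that the higher genes made up 69.8% of those past 2-fold against 49.4%, and the median difference over all genes moved to 0.17. The scanner files put 950 of 9204 genes (10.3%) past 2-fold higher and 1263 (13.7%) past 2-fold lower. The median difference over all genes was -0.09 in the table and -0.13 in the scanner files, and the middle 50% of the table's genes lay between -0.70 and 0.59.

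The pulse arrays give the difference between the series before any drug was present, since actinomycin D was added only with the chase. At the pulse 704 of 7901 genes (8.91%) were past 2-fold higher in the U+actD series and 1332 (16.9%) past 2-fold lower. Across genes the difference at the pulse and the difference at the 1-hour chase had a Spearman's rho of 0.73 in the table (7901 genes) and 0.63 in the scanner files (8339 genes). Genes are not independent replicates, and the 4 arrays behind each value are different ones. Of the 1230 genes past 2-fold lower after 1 hour, 1211 (98.5%) were already lower at the pulse, and 710 (57.7%) past 2-fold. Over all genes 40.1% were higher at the pulse. Of the 1200 genes past 2-fold higher, 1017 (84.8%) were already higher at the pulse and 501 (41.8%) past 2-fold.

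The difference that arose during the chase is the value at 1 hour less the value at the pulse. It was past 2-fold upwards in U+actD for 844 of 7901 genes (10.7%) and downwards for 185 (2.34%) in the table, and for 15.4% and 7.64% of 8339 genes in the scanner files. A change above 0 was seen for 54.1% of the genes of the table. Among the genes past 2-fold higher at 1 hour, 431 (35.9%) had also moved up past 2-fold since the pulse. Among those past 2-fold lower, 79 (6.42%) had moved down past 2-fold. Over all genes the shares with such a change were 10.7% upwards and 2.34% downwards. The genes were picked by the same 1-hour value that the change contains, so that these shares cannot set the 2 sides against each other. In the table most genes of both sides already lay on the same side at the pulse, with 98.5% of the lower and 84.8% of the higher ones.

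**Figure D1:**
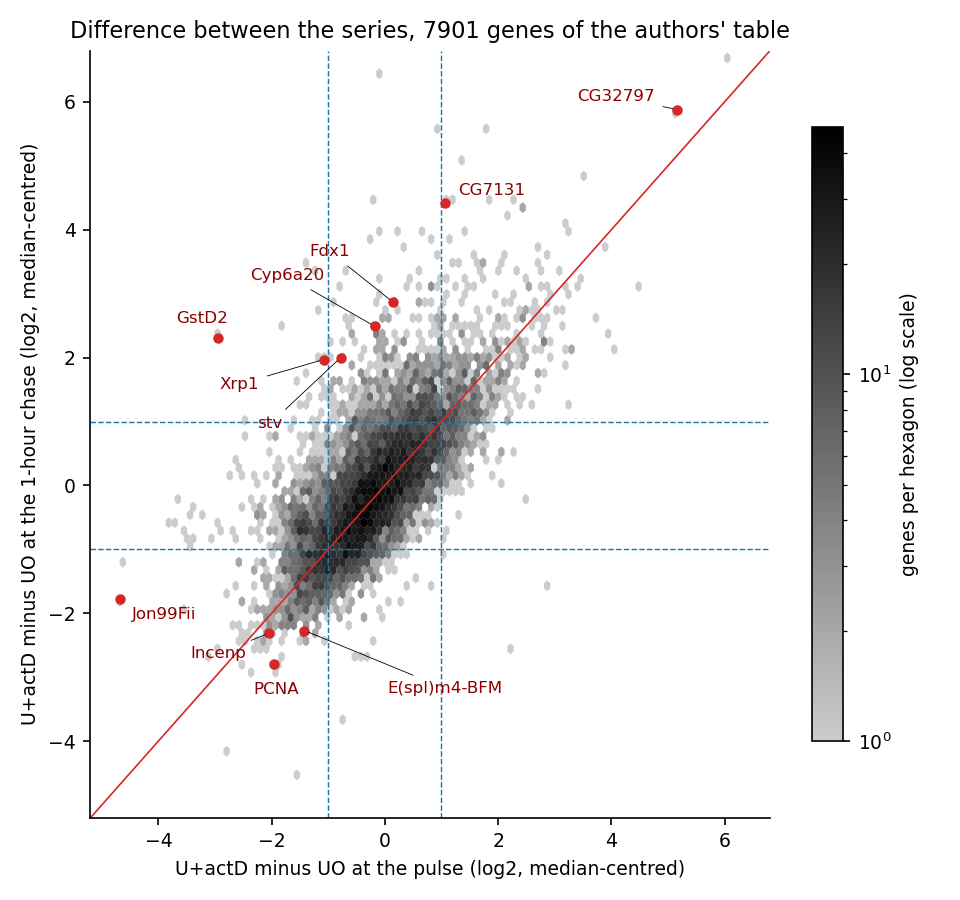
Difference between the series at the 1-hour chase (U+actD minus UO, log2, vertical axis) against the difference at the pulse (horizontal axis) for the 7901 genes of the table, with darker cells holding more genes and dashed lines at 2-fold. The genes spread along a rising band, with a Spearman's rho of 0.73, and GstD2 stands alone at the upper left of this source, at -2.95 at the pulse and 2.31 after 1 hour.

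Of 21 markers of neurons, glia, muscle, blood cells, fat body, trachea and germline, 17 stood above background on both 1-hour arrays. Another 3 (Hml, Lsp2 and Fbp1) did so on the U+actD array only, and nos had no value. Of all genes named on the array, 9204 of 13170 stood above background on both. The marker count alone therefore does not identify the material. In whole embryos a lower level of a tagged mRNA in fewer cells cannot be told apart from less of it per cell.

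The genes furthest apart in both sources and in the same direction were mostly uncharacterised. CG32797 had a normalized intensity of 36453 in U+actD and 263 in UO, and scanner signals of 18986 and 108, which gave differences of 5.88 and 5.43. It was already far apart at the pulse, at 5.16 and 3.75, before the drug. CG7131 stood at 23263 and 460, differences of 4.42 and 4.46, after pulse differences of 1.07 and 2.14, and was at -0.77 after 3 hours in the table. On the U+actD arrays its signal was 6884 at the pulse, 23263 after 1 hour and 286 after 3 hours, so that the high value was that of the 1-hour array.

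Among the characterised genes on the higher side, Tim17b2 and Fdx1 serve mitochondria. Tim17b2, a subunit of the inner membrane import channel, had 7089 in U+actD and 315 in UO, with differences of 3.25 and 3.41 and a pulse difference of 3.50 in the table. Fdx1, a ferredoxin that passes electrons to mitochondrial enzymes, had 13849 and 801, with differences of 2.87 and 3.08. Unlike Tim17b2, Fdx1 differed little between the series at the pulse, at 0.14 and 0.48. CtsK2, named as a cathepsin, a cysteine protease, had 19207 and 930 and differences of 3.13 and 2.85. The remaining genes among the 12 highest were CG8136 (3.52 and 3.79), CG14490 (3.42 and 3.16), CG10803 (4.84 and 3.07), CG4049 (2.91 and 3.14), Hers (2.79 and 2.92), CG34354 (6.68 and 2.77) and CG15465 (4.00 and 2.76). All 12 were higher in U+actD at the pulse as well in the table, between 0.14 for Fdx1 and 6.10 for CG34354. Those with a pulse value in the scanner files lay between 0.43 for CtsK2 and 3.86 for CG8136. Several of the 12 were close to the background threshold of 54 on the UO scanner array at 1 hour. CG15465 had 68.5, Tim17b2 85 and CG8136 86, while CG34354 had 1129. At the pulse CG8136 had 55 there, against a threshold of 51. The sizes of such differences are therefore uncertain.

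The 12 lowest genes held more known functions. CG10035 had 7538 in U+actD and 20813 in UO and differences of -2.70 and -3.47. Incenp, the scaffold of the chromosomal passenger complex of mitosis, had 32070 and 67232 and differences of -2.31 and -2.11. The augmin subunit msd1, which helps to nucleate microtubules inside the spindle, had 9629 and 23314 and differences of -2.52 and -2.21. Both mitotic genes were already low at the pulse, at -2.04 and -2.74 for Incenp and at -2.95 and -4.39 for msd1. The proneural transcription factor ato had 722 and 1312 and differences of -2.10 and -2.47. The insulin-like peptide gene Ilp4 had 4199 and 8599 and differences of -2.27 and -2.01. RpS10a, a paralogue of a ribosomal protein gene, had 870 and 1448 and differences of -1.98 and -3.67. The other genes of the 12 were Irk3, an inward rectifier potassium channel (-2.70 and -2.23), Gba1b, a glucocerebrosidase (-2.08 and -2.15), CG14135 (-2.55 and -2.32), CG13465 (-2.88 and -2.28), CG15480 (-2.29 and -2.04) and CG13454 (-1.99 and -2.07). All 12 were lower in U+actD at the pulse as well, between -1.36 for ato and -3.10 for CG10035 in the table and between -0.84 for CG15480 and -5.34 for CG10035 in the scanner files.

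Groups of genes with a shared role are described by how many members were higher or lower and by their median, beside the median of -0.09 and the shares of 15.2% and 15.6% for all genes, of which 46.3% had a difference above 0. In the table the Notch target genes of the E(spl) and Bearded families had the lowest median of the groups described here. This leaves aside the smaller subgroups within them, some of which were lower. E(spl) HLH genes encode repressors that Notch signalling switches on to keep cells from becoming neural, and Bearded family genes encode small proteins that dampen the pathway. Of the 14 members 13 had a difference below 0, 8 past 2-fold, and 1 past 2-fold above, with a median of -1.17 in the table. In the scanner files 10 of 14 were past 2-fold lower, where 13.7% of all genes were, and the median was -1.40. The medians at the pulse were -0.90 and -0.69.

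Among the HLH repressors all 6 were lower, 4 past 2-fold. E(spl)m5-HLH had 8692 in U+actD and 14932 in UO, with differences of -2.02 and -1.65. It had stood at -0.39 and -0.55 at the pulse, and relative to the median gene its level went up by 1.23 during the uridine-only chase (0.66 on the scanner arrays), while the change with the drug was -0.42. E(spl)mgamma-HLH gave -1.33 and -1.80. In the Bearded family E(spl)m4-BFM was lowest, with 1749 and 3570 and differences of -2.27 and -1.94, followed by BobA at -2.24 and -1.65. E(spl)m6-BFM was the member on the other side, with 15450 and 2388 and differences of 1.45 and 0.51.

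Cell cycle and DNA replication genes came next in the table, though in the scanner files the cytosolic ribosomal proteins, the respiratory chain, translation factors and the proteasome had lower medians. Of 50 measured members 41 were below 0 and 26 past 2-fold lower, against 2 past 2-fold higher, and the median was -1.10 (scanner -0.73, with 20 of 53 past 2-fold lower). At the pulse the medians were -0.58 and -0.91. PCNA, the sliding clamp of DNA polymerase, had 14949 in U+actD and 44065 in UO, differences of -2.80 and -1.74, and -1.96 at the pulse in both sources. All 5 genes of the origin recognition complex, which marks where replication starts, were past 2-fold lower in the table (median -1.85) and 3 of 5 in the scanner files (median -1.11). Of 5 genes for subunits of the MCM helicase, which unwinds DNA at the fork, 4 were past 2-fold lower, with a median of -1.23 (scanner -0.99). Mcm6 gave -1.49 and -1.45.

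Some cyclins and regulators of cell cycle progression lay in the same range. The cyclin genes CycA and CycB gave -1.42 and -1.73 in the table and -0.88 and -1.21 in the scanner files. The cyclins were divided, since the remaining cyclin gene of the table stood at 0.11. Of the 5 cyclin genes measured in the scanner files, 3 were below 0 and 2 above, with 1 past 2-fold higher and 1 past 2-fold lower. Cdk2, the partner kinase of cyclin E, gave -1.96 and -1.47, and fzy, the activator of the anaphase-promoting complex, -1.97 and -1.65. A few members went the other way. The Cdk1-activating phosphatase stg was higher in both sources, at 1.25 and 1.04. Rbf2, of the retinoblastoma family, was the highest in the table at 3.21 but stood at -0.05 in the scanner files.

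Genes for the transcription machinery itself were lower. Of 35 Mediator and RNA polymerase II genes 24 were below 0 and 14 past 2-fold lower, with a median of -0.88 (scanner -0.68, 11 of 37 past 2-fold lower, medians at the pulse -0.47 and -1.05). The polymerase subunits were lower than the Mediator subunits, with 10 of 11 below 0, 8 past 2-fold and a median of -1.13 (scanner -1.09), against -0.53 (scanner -0.63) for the 22 Mediator subunits. Polr2F was lowest, with 29645 in U+actD and 54097 in UO and differences of -2.11 and -1.74. The Mediator kinase module genes skd and kto were not lower, at 0.22 and 0.27 in the table and 1.33 and 0.40 in the scanner files.

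Proteasome subunits were lower nearly throughout, with 30 of 33 below 0, 13 past 2-fold and none past 2-fold higher, and a median of -0.86 (scanner -0.81). Their medians at the pulse were -0.84 and -1.40. Rpt3, an ATPase of the cap that unfolds substrates, had 12640 in U+actD and 19912 in UO, with differences of -1.90 and -1.59. Prosalpha2 was the highest of these 33, at 0.20 and -0.03. A gene outside this list, Rpn13R, a paralogue of Rpn13, stood at 1.32 and 2.79. Nuclear-encoded genes of the respiratory chain had 55 of 69 members below 0 and 27 past 2-fold lower, with a median of -0.68 (scanner -0.88, pulse -0.97 and -1.71). Complex I had 27 of 32 subunits below 0 (medians -0.71 and -0.91), and ATP synthase 11 of 12 (medians -1.10 and -0.87). ND-18 of complex I had 5591 and 10882 and differences of -2.20 and -1.69. Another complex I gene, ND-AGGG, was the highest of the group at 2.72 and 0.68.

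Most genes for the translation machinery were lower too. Medians were -0.59 for 43 translation factors (35 below 0), -0.56 for 38 ribosome biogenesis genes (31 below 0) and -0.52 for 68 mitochondrial ribosomal proteins (52 below 0), and the scanner files gave -0.85, -0.38 and -0.46. The 19 aminoacyl-tRNA synthetase genes, which load tRNAs with amino acids, were divided, with 9 above 0 and 10 below and medians of -0.01 and 0.16. The 81 cytosolic ribosomal protein genes had 73 members below 0 and a median of -0.59, but 8 past 2-fold lower, while the scanner files placed 70 of 82 past 2-fold lower with a median of -1.87, and the table's median was 0.01 after quantile normalization and 0.09 after a correction for brightness. Of the 81 genes 73 were saturated on a scanner array, so that their recorded differences are not measured ones. The 8 unsaturated genes had a median of -1.06. At the pulse the 81 genes had stood at medians of -1.45 and -3.77 as recorded. RpLP0 was recorded at 1.77 and -1.47 and was saturated on both arrays.

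**Figure D2:**
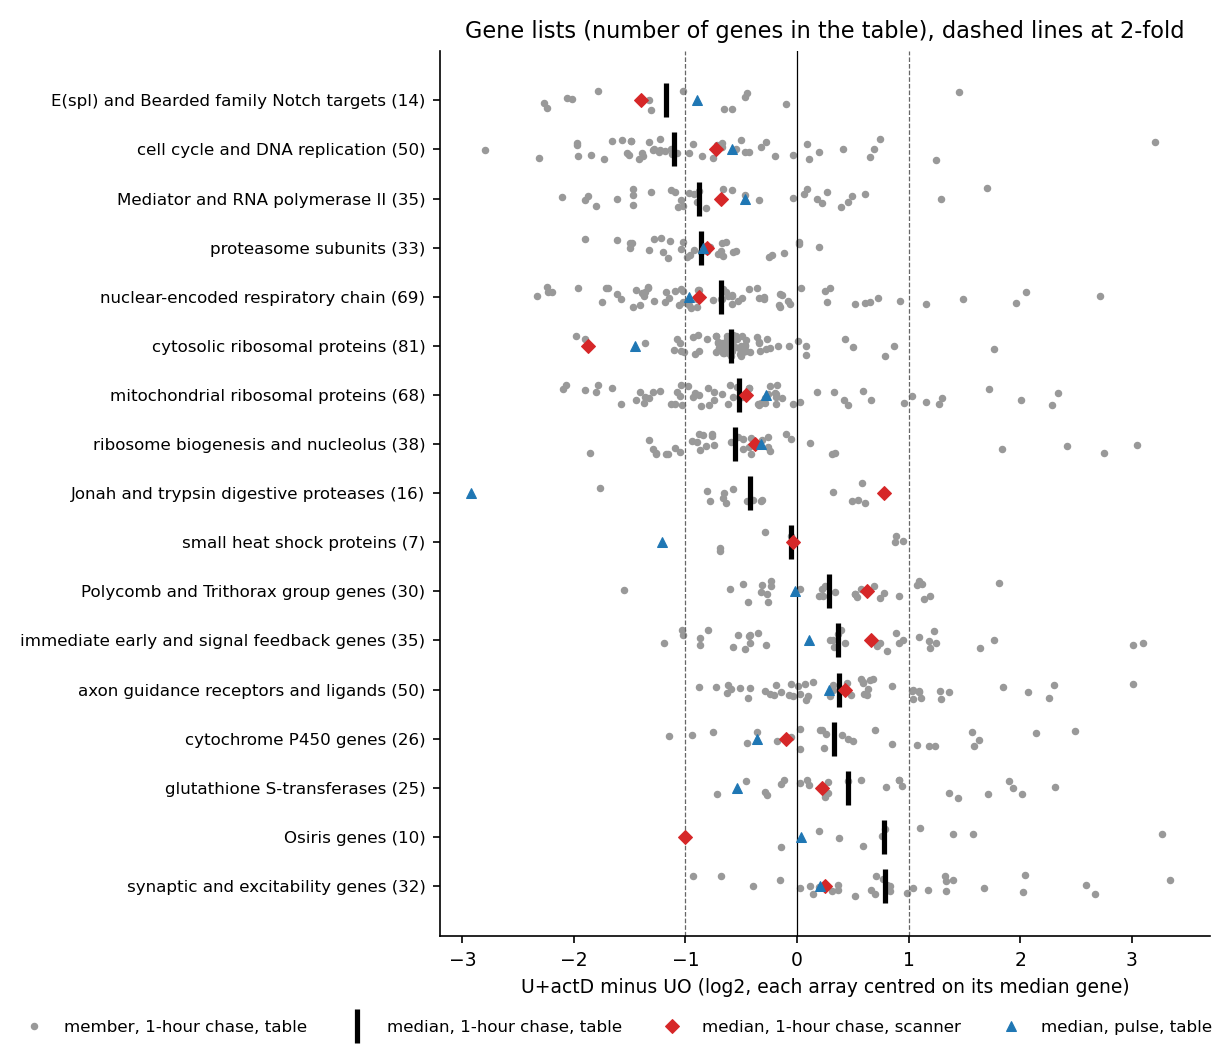
Difference between the series (U+actD minus UO, log2) for a selection of the gene lists. Grey points are member genes at the 1-hour chase in the table. Separate markers give the list medians at the 1-hour chase in the table and the scanner files, and at the pulse in the table. Notch targets (-1.17) and cell cycle genes (-1.10) lie lowest, and synaptic genes (0.79) are among the highest.

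On the higher side stood synaptic and axon guidance genes, while other genes of the nervous system did not share the direction. For 59 transcription factors of neural fate the medians were -0.38 and -0.24, with 36 below 0 and 13 past 2-fold lower in the table, and for 20 glial genes they were -0.39 and -0.06, with 14 below 0. Of 32 synaptic and excitability genes 28 were above 0 and 12 past 2-fold higher, none past 2-fold lower, and the median was 0.79. The scanner files gave a median of 0.25 over 45 genes, with 11 past 2-fold higher, where 10.3% of all genes were, and 2 past 2-fold lower. The pulse medians were 0.21 and 0.47, so that the change since the pulse opposed between the sources, with medians of 0.70 and -0.20. Among genes for transmitter release, the syntaxin gene Syx1A had 65529 in U+actD and 13451 in UO and differences of 1.04 and 1.29, and cpx, whose product clamps the fusion machinery, gave 2.04 and 1.40. Of the transmitter transporters, VAChT, which loads acetylcholine into vesicles, gave 2.03 and 1.26, and Vmat, which loads monoamines, gave 3.34 and 0.60 with 3165 and 133. The vesicle calcium sensor Syt1 gave 2.67 and 0.64. At the pulse cpx had stood at 1.58 and 1.49, VAChT at 1.94 and 1.95, Vmat at 1.71 and 0.82 and Syt1 at 3.72 and 0.11. Syx1A had been recorded at -0.49 and -0.24 there, with a probe saturated on the U+actD array. The chaperone gene Csp was lowest at -0.93 and -0.26. The neuronal RNA-binding protein gene elav had 73819 and 12353, and since a probe was saturated on the U+actD array its difference was at least 1.34 in the table and 1.43 in the scanner files.

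Axon guidance receptors and ligands had 34 of 50 members above 0, 14 past 2-fold higher and none past 2-fold lower, with a median of 0.38 (scanner 0.43, pulse 0.29 and 0.34). The 7 semaphorin and plexin genes, ligands and receptors of a repulsive guidance system, had a median of 0.57 (scanner 0.51), and Sema1a had 15394 in U+actD and 2531 in UO with differences of 1.36 and 1.51. The transmembrane protein genes kek1 and Ten-m were highest with large pulse differences, at 2.29 and 2.37 for kek1 and 2.19 and 1.33 for Ten-m. They gave 3.01 and 2.30 in the table, and 1.61 and 0.93 in the scanner files. The netrin gene NetA was lowest at -0.88 and -0.06.

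Chromatin regulators of the Polycomb and Trithorax groups, which keep genes off and on through development, had 20 of 30 members above 0 and 6 past 2-fold higher, with a median of 0.29 (scanner 0.63, with 10 of 30 past 2-fold higher and none lower). At the pulse their medians were -0.02 and 0.44, and the median change since then was 0.06 and 0.01. Pcl had 18532 in U+actD and 2235 in UO, with differences of 1.81 and 1.2, and Su(z)2, a relative of the Polycomb complex gene Psc, gave 1.08 and 1.93. The histone methyltransferase gene trx gave 0.91 and 1.35. The Brahma complex gene mor was lowest, at -1.55 and -0.43. Immediate early and signal feedback genes, which growth and stress signals switch on quickly, had 21 of 35 members above 0 and 9 past 2-fold higher against 3 past 2-fold lower, with a median of 0.37 (scanner 0.66, pulse 0.11 and 0.53). The zinc finger gene crol had 19200 and 950 with differences of 3.10 and 1.70. The insulin receptor gene InR gave 1.77 and 1.06, the transcription factor gene chinmo 0.89 and 1.77, and puc, the phosphatase that shuts off JNK signalling, 0.74 and 1.44. At the pulse crol had been recorded at 3.21 and 1.60, InR at 1.58 and 0.84, chinmo at 0.88 and 1.90 and puc at 0.11 and 1.44. For crol and chinmo a probe was saturated at the U+actD pulse. The repressor gene brk was lowest at -1.19 and -0.14.

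Glutathione S-transferases, which attach glutathione to toxic compounds, had a median of -0.54 at the pulse and 0.46 at 1 hour in the table, with a median change of 1.02 and 22 of 25 above 0. In the scanner files the pulse median was -0.16 and the change 0.28, with 16 of 27 above 0, where 55.7% of all genes were. After 1 hour 19 of 25 were above 0 and 7 past 2-fold higher, and the scanner files gave 0.22 with 9 of 30 past 2-fold higher and 4 lower. Of 7 delta genes 6 were above 0 at 1 hour with a median of 0.91, after a pulse median of -2.04, and all 7 had changed upwards in U+actD relative to UO. In the scanner files the pulse median of the delta class was -0.07, the 1-hour median 1.12 with 5 of 8 past 2-fold higher, and the change 1.73.

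GstD2 had the largest change of the class in the table. At the pulse it had 3482 in U+actD and 10657 in the UO table, but 86.5 on the UO scanner array, so that its pulse difference was -2.95 in the table and 0.97 in the scanner files. After 1 hour it had 15379 and 1310 in the table. Its relative level had gone up by 2.82 with the drug, and the change without it was -2.42 in the UO table and 0.26 on the UO scanner arrays. The differences at 1 hour were 2.31 and 3.51. GstD1 had 20327 and 4482 after 1 hour and differences of 0.94 and 1.36, after -1.02 and -0.14 at the pulse. After 3 hours GstD2 was at 0.35 and GstD1 at -0.02 in the table. GstD5 gave 0.80 and 1.66, GstD7 0.28 and 1.21, GstD10 1.36 and 1.03, and GstD9 -0.27 and 0.04. Delta genes lie close together and are alike in sequence, and probes may read more than 1 of them. In the epsilon class GstE9 was highest, at 1.94 and 1.34, and GstE13 lowest, at -0.72 and -1.16.

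Cytochrome P450 genes had 19 of 26 members above 0 and 8 past 2-fold higher in the table, with a median of 0.33, and a median of -0.10 over 43 genes in the scanner files. Cyp6a20 had 3492 in U+actD and 264 in UO, with differences of 2.49 and 2.07 after -0.18 at the pulse in the table. Cyp4p1 gave 2.14 and 3.57. The 2 medians cover different sets of genes, and the UO table less the UO scanner array had a median of 0.02 for this group. The opposite signs are therefore not a disagreement over the same genes. Cyp6a20, the highest of the group in the table, and Cyp4p1 were above 0 in both sources.

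Some stress and damage genes were higher after 1 hour. Xrp1, a bZIP transcription factor of the response to DNA damage and ribosome defects, had 117791 in U+actD and 12722 in UO. A probe of it was saturated in U+actD, so that its differences were at least 1.97 and 3.23. A probe was saturated at the U+actD pulse too, so that the change with the drug was not measured, and the recorded pulse differences were opposite, at -1.08 and 2.20. Without the drug the change was -1.39 in the UO table and 0.10 on the scanner arrays. The gene Irbp gave 0.86 and 1.34, and Ku80, which joins broken DNA ends, 1.06 and 1.52. By contrast tefu, the ATM kinase gene, was at -1.98 and -1.08. The list of cell death and DNA damage genes as a whole had a median of -0.35 (scanner -0.24) over 22 genes.

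The 8 Hsp70 and co-chaperone genes had recorded medians of -0.45 and 0.02, with 5 below 0 in the table. Of the 8 genes 5 were saturated on a scanner array, so that their recorded differences are not measured ones. The 3 unsaturated genes had a median of 1.84 in the table. The members past 2-fold higher were stv and DnaJ-1. stv, a partner of Hsc70, had 64722 and 6848 and differences of 2.0 and 1.87, and DnaJ-1, of the Hsp40 type, had 109455 and 12961 and differences of 1.84 and 1.30. Relative to the median gene stv went up by 0.96 in U+actD after the pulse, and a probe of DnaJ-1 was saturated at that pulse. For the UO series the sources opposed each other, with changes of -1.80 for stv and -0.50 for DnaJ-1 in the table and of 1.06 and 2.53 on the scanner arrays. The 7 small heat shock protein genes had a median of -0.05 in the table and -0.04 in the scanner files, and 5 of them were saturated.

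**Figure D3:**
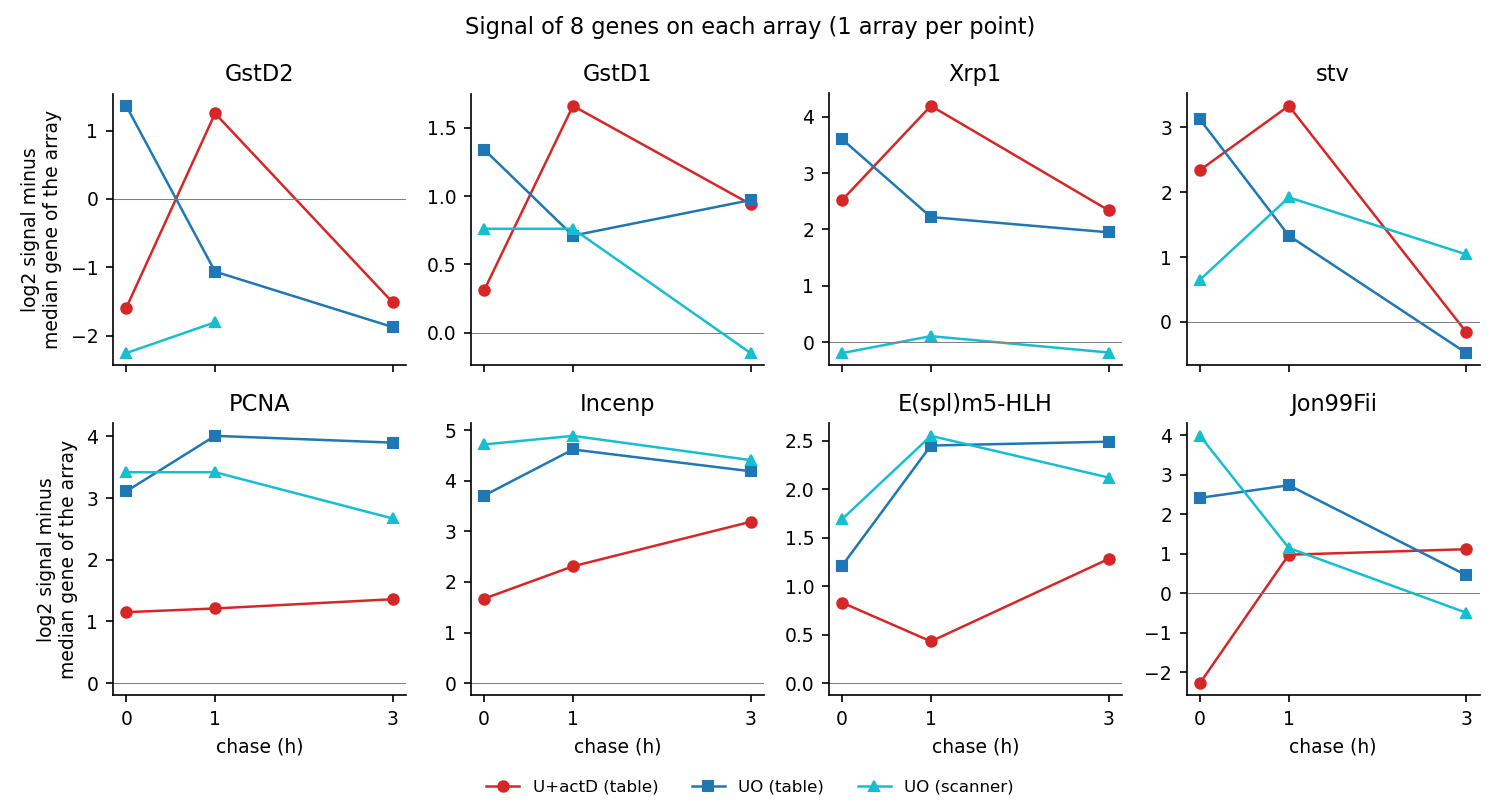
Log2 signal of 8 genes relative to the median gene of the array (vertical axis) at the pulse (0 h) and after 1 and 3 hours of chase, 1 array per point, for U+actD and UO in the table and for UO in the scanner files. Xrp1 was saturated at 0 and 1 h in U+actD. GstD2, GstD1, Xrp1 and stv are highest at 1 hour in U+actD while the UO table falls from the pulse to 1 hour, PCNA, Incenp and E(spl)m5-HLH lie below both UO lines throughout, and Jon99Fii starts far below them and meets the scanner line at 1 hour.

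Digestive proteases of the Jonah and trypsin families, made in the gut at the end of embryogenesis, depended on the UO source. In the table, 11 of 16 were below 0 after 1 hour, with a median of -0.42, and in the scanner files 8 of 20 were past 2-fold higher, with a median of 0.78. In both sources they had been far lower in the U+actD series at the pulse, with medians of -2.92 and -4.37. Jon99Fii had 2165 in U+actD and 22067 in UO at the pulse (-4.68), and 12614 and 18165 after 1 hour (-1.77 in the table and 0.29 in the scanner files). Jon65Ai went from -3.87 to -0.57 in the table and from -5.53 to 0.42 in the scanner files. Family members are near-identical, so that single genes are uncertain. The Osiris genes, expressed in the late epidermis and trachea, also switched sides between the sources, with a median of 0.78 over 10 genes in the table and -1.0 over 13 genes in the scanner files, and Osi6 gave 1.58 and -1.80. The muscle myosin gene Mhc likewise gave 1.59 and -0.73. For these genes the direction after 1 hour cannot be read from the data.

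The difference varied with the length of the gene. Annotated gene span, from the first to the last base including introns, was taken from RefSeq (assembly Release 6 plus ISO1 MT) for 7894 of the table's genes (99.9%). The median difference after 1 hour was -0.63 for 805 genes under 1 kb, -0.13 for 2590 genes of 2 to 5 kb and 0.52 for 204 genes over 50 kb, and it went up at each step between. The scanner files gave -0.56, -0.15 and 0.51 for the same bins. Among the shortest genes 34.7% were past 2-fold lower and 10.9% past 2-fold higher, and among the longest 3.92% and 27%. At the pulse the medians were already -0.71, -0.20 and 0.28 in the table and -1.27, -0.13 and 0.51 in the scanner files. Several groups described above differ in span too. The median span was 2.88 kb over all genes of the table. Among lower groups it was 0.96 kb for Notch targets, 1.1 kb for Mediator and polymerase genes and 1.12 kb for the respiratory chain. Ribosomal proteins, at 1.36 kb, and proteasome subunits, at 1.39 kb, were lower too. Among higher groups it was 7.79 kb for the Polycomb and Trithorax groups and 13.7 kb for synaptic genes. Immediate early genes stood at 16.2 kb and axon guidance genes at 31.9 kb. Cell cycle genes were lower at a median span of 3.16 kb, neural fate factors at 4.67 kb and glial genes at 6.29 kb. Glutathione S-transferases were higher at 1.06 kb. The part of gene span in the group differences was not tested.

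It also varied with brightness. The table's genes, ordered by mean signal and split into 5 equal bins, had medians of 0.43, 0.12, -0.04, -0.23 and -0.59 from the dimmest to the brightest bin, and -0.06, 0.06, -0.04, -0.13 and -0.46 in the scanner files. The SD of log2 signal over genes was 1.74 on the U+actD array and 2.08 in UO in the table (1.87 and 2.02 in the scanner files). A smooth curve over brightness was therefore removed as an alternative. With it the medians were -0.72 for Notch targets, -0.75 for cell cycle genes, -0.47 for Mediator and polymerase genes, -0.51 for proteasome subunits, -0.37 for the respiratory chain and 0.09 for cytosolic ribosomal proteins. On the higher side they were 0.67 for synaptic genes, 0.49 for axon guidance, 0.60 for the Polycomb and Trithorax groups, 0.69 for immediate early genes and 0.55 for glutathione S-transferases. The order of the span bins remained, from -0.48 under 1 kb to 0.53 over 50 kb.

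**Figure D4:**
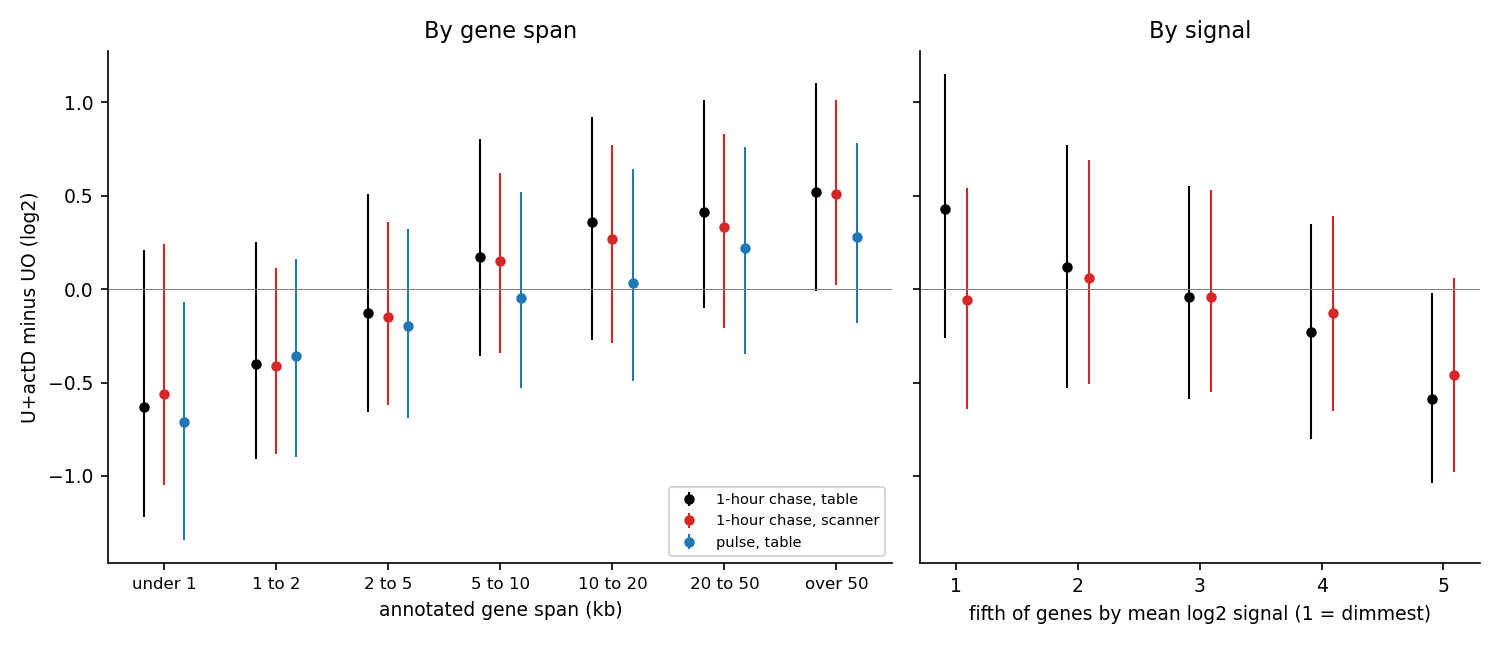
Left, median difference between the series (U+actD minus UO, log2) in bins of annotated gene span in kb, after 1 hour in the table and the scanner files and at the pulse in the table. Right, the same after 1 hour in 5 bins of genes by mean signal. Points are medians over genes and bars span the middle 50% of genes. The medians climb from -0.63 to 0.52 with span in the table and go from 0.43 to -0.59 with brightness.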

How the data were processed

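Tagged RNA with spike-in transcripts was Cy3 labelled and hybridised to Agilent 4x44K arrays. The authors scaled signals within each series by the spike-ins, and the deposited table holds normalized intensity values with dim spots left out. Its lowest pulse values are 600 (U+actD) and 300.84 (UO), and its lowest 1-hour values are 88.32 and 2.6. For each spot the deposited scanner output gives background-subtracted intensity and the percent of saturated pixels. Scanner and software versions are not given in the sources used here. The deposited values of the series matrix equalled the table's.

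Of 32162 probes 20668 were named, 14546 from the platform annotation and 6122 from the authors' gene names. Probes of a gene were averaged on the log2 scale. Of 880 genes with several probes in the table, 350 had probes of opposite sign. In the scanner files a gene was above background beyond the 95th percentile of 153 negative control spots (128.4 for U+actD and 54 for UO at 1 hour), and saturated at 50 percent saturated pixels. Above this threshold 2191 genes stood on the U+actD array only and 190 on the UO array only. At the 1-hour chase 193 genes were saturated in U+actD and 90 in UO, and the scanner's local background was 0 at 46% of UO spots. Across 9654 probes the table's UO 1-hour column had a Spearman's rho of 0.921 with the UO 1-hour scanner array and 0.925 with the UO pulse array. Which source holds the labelled arrays was not settled.

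With 1 array per group no test was made. Scripts used Python 3.11.15, pandas 2.3.3, scipy 1.17.1 and statsmodels 0.14.6 and were tested on simulated data. Members and gene lists were chosen with earlier results of these data known. Named genes are the 12 in each direction with the largest smaller difference of the 2 sources, of the same sign, above background and unsaturated on both scanner arrays, and the highest, median and lowest of lists. Other named genes were chosen after their values were seen. Alternatives were 75th percentile centring, quantile and loess normalization (span 0.3), signal and background filters, the brightest probe, leaving out saturated genes, and folds of 1.5 and 4.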

Additional observations from a re-analysis of the deposited data

Results flagged for a closer look

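The table leaves out 1530 genes that stood above background on both 1-hour scanner arrays. Of these 167 (10.9%) were past 2-fold higher in U+actD and 249 (16.3%) past 2-fold lower.

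A few relative changes from pulse to 1-hour chase ran in opposite directions in the series, and these differences were not tested. For GstD2 the changes were 2.82 in U+actD and -2.42 in the UO table, a difference of 5.26, and the UO scanner arrays gave 0.26. For Xrp1 the recorded values were 1.64 and -1.39, a difference of 3.05, with 0.10 on the UO scanner arrays, but a probe was saturated on the U+actD arrays of both times, so that the U+actD change and the difference are not measured ones. For CG4049 they were 1.33 and -1.40, a difference of 2.75, with -0.01 on the scanner arrays. The 19 maternal and germline mRNAs had median changes of 0.44 and -0.37, with a median difference of 0.74, and 0.41 and -0.29 in the scanner files. At 1 hour the sources opposed each other for this list, with a median of 0.37 in the table. The scanner files gave -0.44, with 21 of 29 genes below 0.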

How the results depend on the processing

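No paired analysis was possible because each group is 1 array, which also leaves no array to drop. The precision of single differences is unknown. Dim genes are limited by background and bright ones by saturation (193 genes in U+actD and 90 in UO). The causes of the shifts below were not tested. Of 834 comparisons of single genes with an alternative, 801 shifted by less than 0.90, the SD of the pulse differences, 27 moved further and 6 reversed. A reversal was counted only for genes past 2-fold, so that small differences that changed sign are among the 801. Against the scanner files 64 stayed within that limit, 24 moved and 6 reversed. The 12 genes named in each direction were picked for a large difference of the same sign in both sources. Other genes were picked after their values were seen. These counts are therefore not an independent check of the sources against each other.

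With both series from the scanner files, the counts past 2-fold were 3397 at the pulse, 1177 after 3 hours and 1922 for the change, and list medians moved to -1.87 for cytosolic ribosomal proteins, 0.78 for Jonah and trypsin proteases and 0.25 for synaptic genes. Direction reversed there for Osiris genes (-1.0), cytochrome P450 genes (-0.10), Rbf2 (-0.05), RpLP0 (-1.47), Jon99Fii (0.29), Osi6 (-1.80), Osi12 (-0.65) and Mhc (-0.73). The cytochrome P450 median was taken over 43 genes there and over 26 in the table. Centring on the 75th percentile left 715 genes past 2-fold lower and gave -0.34 for cytosolic ribosomal proteins, -0.42 for the respiratory chain and -0.60 for the proteasome. Quantile normalization gave 0.01, -0.40 and -0.56 for these lists, and 13 of 42 lists below the median of all genes in place of 22. Loess gave 0.09, -0.37 and -0.51. Of the 1200 higher and 1230 lower genes, 962 and 895 stayed past 2-fold after quantile normalization and 1005 and 850 after loess, with none changing sign. Cytosolic ribosomal proteins stood at -1.06 without saturated genes and at -0.50 when the differences were centred on their own median, an alternative chosen after seeing the data. A signal of at least 200 on both arrays left 1191 genes past 2-fold after 3 hours. At 1.5-fold the counts were 4357 after 1 hour (2000 higher and 2357 lower), 3936 at the pulse, 3727 after 3 hours and 2605 for the change. At 4-fold they were 390 (281 and 109), 243, 336 and 189.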
